A study of Mus musculus with 31 samples.

Results

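The comparison described here is whether dexamethasone (Dex), a synthetic glucocorticoid, and the cytokine TGF-β1 combine additively on the messenger RNA of cultured mouse Th17 cells. The experiment holds 12 of the 31 libraries of the study, in a 2 by 2 design with 3 libraries per group. All cells were wild-type C57/B6 T cells that came from spleen and dLN (as labelled) and had been turned into inflammatory Th17 cells (Th17Inf) in vitro. They were then kept for 2 days without either agent (Ctrl), with Dex, with TGF-β1 (TGF), or with both agents (TGF+Dex), and live Th17 cells were sorted before lysis. The doses and the number of donor mice are not given in the sources used here. The labels also do not tell whether the 3 libraries of a group were separate cultures, so all p-values measure the spread among these libraries, which may be technical. Of 31053 gene symbols, 10332 had enough counts to be tested, and all of them are the members examined here.

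Dexamethasone binds the glucocorticoid receptor, a nuclear receptor that switches on genes with its own DNA element and dampens genes driven by NF-kB and AP-1. TGF-β1 signals through a pair of receptor kinases to Smad transcription factors, and in CD4+ T cells it can favour Th17, Th9 or regulatory programmes depending on the cytokines beside it. Genes that carry inputs for both pathways can receive the effects independently, so that the fold changes multiply, or one agent can alter the response to the other.

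The libraries held 2769203 to 4291149 counts each, with 13878 to 15027 genes detected. A floor of 3 counts, a chosen cutoff under which levels were taken as unresolved, corresponded to 0.632 to 1.13 CPM, edgeR's counts scaled to library size. A family of 11 predicted, repeat-like genes took 9.09% to 28.7% of the counts of a library, the most in TGF+Dex replicate 2, and leaving these genes out also gave 0 interaction calls. Replicates within a group spread by a median SD of 0.190 to 0.196 on the log2 CPM scale. The 14 T cell markers summed to 3651 to 4047 CPM in every library. Myeloid markers summed to 9.48 to 17.4 CPM with 5 of 18 at 0 counts, neutrophil markers to 2.74 to 8.67 CPM with 3 of 9 at 0, and B cell markers to 75.6 to 98.7 CPM with 1 of 9 at 0. The 10 NK and CD8 T cell markers, 2 of them at 0, summed to 22.2 to 23.4 CPM in Ctrl, 22.8 to 29.0 CPM in Dex, 10.6 to 12.1 CPM in TGF and 17.3 to 27.6 CPM in TGF+Dex. Because these are bulk libraries, fewer cells of a type and less RNA per cell cannot be told apart.

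The Th17 label was checked against the cytokine gene Il17a, which was present in all 12 libraries. Il17a lay at 21.7, 12.5 and 23.4 CPM in Ctrl and 63.5, 16.5 and 58.4 CPM in TGF. The untreated cells also carried RNA of the Th2 factor Gata3, at 110, 107 and 119 CPM. Exposure to Dex was visible in Tsc22d3, which encodes the glucocorticoid-induced protein GILZ. It lay at 45.8, 45.8 and 50.1 CPM in Ctrl, 118, 119 and 110 CPM in Dex, 54.0, 45.7 and 42.4 CPM in TGF, and 124, 99.0 and 93.3 CPM in TGF+Dex. The groups with Dex did not overlap those without it, and the rise was 1.29 alone and 1.15 beside TGF-β1 on the log2 scale. The receptor gene Nr3c1 was low throughout, at 2.60 to 7.15 CPM.

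The interaction was the Dex effect in the presence of TGF-β1 minus the Dex effect in its absence, on the log2 scale, from edgeR's quasi-likelihood test. At 0, the combined level equals the product Dex × TGF / Ctrl. A positive interaction puts the combined level above that product and a negative one below it. No gene departed from additivity at an adjusted p of 0.05: the count was 0 of 10332, or 0.0%, and the smallest adjusted p was 0.0978. At an unadjusted p under 0.05 there were 552 genes, 5.34% of those tested, with 282 above and 270 below the product. The same test in DESeq2 called 6 genes and limma voom called 0.

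A missed threshold does not show additivity, so additivity was tested in its own right. A gene was called additive within 2-fold when the quasi-likelihood tests against an interaction of +1 and of −1 on the log2 scale were both rejected at an adjusted p of 0.05. This held for 6705 genes, 64.9% of those tested, while 3627 genes, 35.1%, were undecided, neither additive nor departing. Under a tighter bound of 1.5-fold, 1844 genes, 17.8%, passed. The median interaction over all genes was −0.0056, and 95.7% of the estimates lay within 2-fold of the product.

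How many genes could be placed followed their level. Below a mean log2 CPM of 2, 2.74% of 877 genes were additive within 2-fold, and the median standard error (SE) of the interaction was 0.69. Between 2 and 4 the share was 46.2% of 4217 genes with a median SE of 0.37, and between 4 and 6 it was 87.3% of 3656 genes with a median SE of 0.22. At 6 and above it was 97.4% of 1582 genes with a median SE of 0.13. Among the weakly expressed genes most were thus undecided at this depth.

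**Figure D1:**
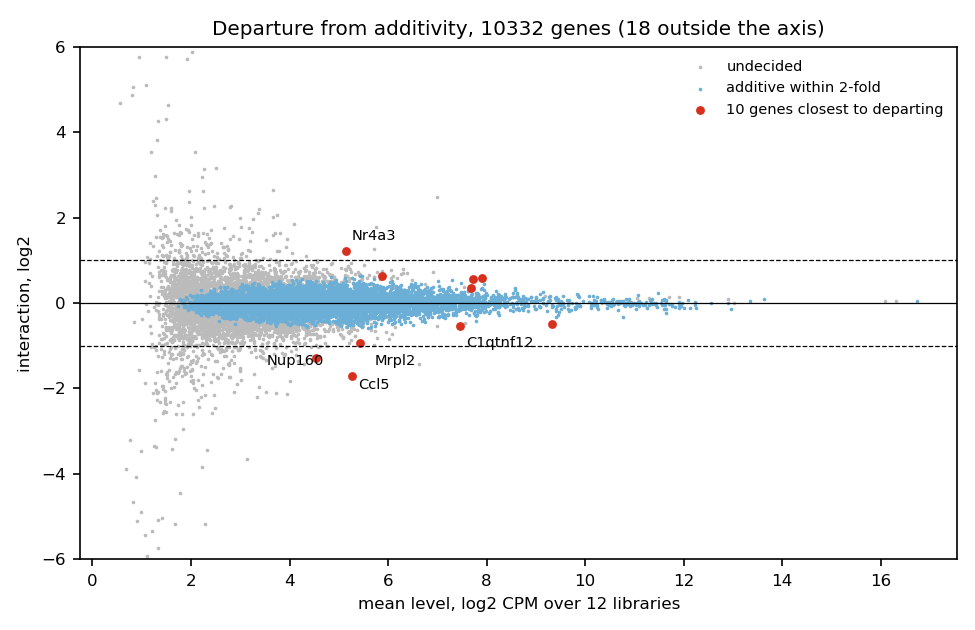
Interaction of Dex and TGF-β1 (vertical axis, log2) against mean level (horizontal axis, log2 CPM over 12 libraries) for 10332 genes, with 18 genes outside the axis. Blue points are the 6705 genes additive within 2-fold, grey points are undecided, red points are the 10 genes closest to departing, and dashed lines mark 2-fold; the cloud narrows as the level rises.

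The informative genes for additivity are those that both agents move. Averaged over the other agent, Dex moved 338 genes (3.27%), 159 up (1.54%) and 179 down (1.73%), and TGF-β1 moved 710 genes (6.87%), 381 up (3.69%) and 329 down (3.18%). Both average effects passed for 125 genes (1.21%), and in a balanced design the estimates of these averages are separate from that of the interaction. Their standard errors rest on the same spread, so this choice favours genes with a small SE of the interaction. The shares that follow depend on that SE. Of the 125 genes, 103 were additive within 2-fold, or 82.4%, against 64.9% of all tested genes, and 67 were additive within 1.5-fold. None departed and 22 were undecided. By direction pattern, the median average effects of the 125 genes were 0.355 to 0.561 log2 in size, under the bound of 1. An additive call within 2-fold therefore does not show that the effect of an agent was kept beside the other. Neither average effect passed for 9409 tested genes, and for these the call does not describe how effects combine. An unadjusted interaction p under 0.05 was found in 21 of the 125, or 16.8%, against 5.34% of all tested genes. Both shares are descriptions and were not tested, and 104 of the 125 genes had a mean log2 CPM of at least 4, where most tested genes were additive.

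Both agents raised 36 genes, of which 31 were additive within 2-fold, and TGF+Dex was above Ctrl in all 36. The change from Ctrl to TGF+Dex is the sum of the average effects that chose these genes, so its direction was fixed by the choice and nothing is read from it. Over all tested genes this comparison called 646 (6.25%), 322 higher (3.12%) and 324 lower (3.14%). The promoters are shown for genes at the centre of the comparison, Ctla2a and Sgk1 as genes that both agents raised and Nr4a3 as the gene closest to departing. Each runs from 250 bases before to 50 bases after the first gene start that RefSeq lists (GRCm38.p6). Any other start of a gene was not examined. In GENCODE M21, Sgk1 runs from 21882184 to 21999903 on chromosome 10, and its window lies at the first of these positions. Capitals mark AGAACA (a single arm of the glucocorticoid response element), CAGACA (the Smad box) or TGANTCA (the AP-1 site) on either strand.
Ctla2a, chr13:60936576-60936875, minus strand: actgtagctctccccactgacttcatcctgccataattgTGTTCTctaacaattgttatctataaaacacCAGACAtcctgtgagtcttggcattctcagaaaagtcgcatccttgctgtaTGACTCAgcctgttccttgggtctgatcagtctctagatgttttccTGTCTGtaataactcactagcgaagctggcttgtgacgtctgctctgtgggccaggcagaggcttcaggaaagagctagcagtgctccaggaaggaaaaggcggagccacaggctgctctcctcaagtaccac
Sgk1, chr10:21881934-21882233, plus strand: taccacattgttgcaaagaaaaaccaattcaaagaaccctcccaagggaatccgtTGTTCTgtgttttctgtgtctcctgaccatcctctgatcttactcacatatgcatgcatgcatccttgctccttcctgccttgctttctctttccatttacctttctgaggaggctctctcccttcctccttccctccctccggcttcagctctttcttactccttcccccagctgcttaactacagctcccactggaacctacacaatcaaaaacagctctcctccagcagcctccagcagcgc
Nr4a3, chr4:48045055-48045354, plus strand: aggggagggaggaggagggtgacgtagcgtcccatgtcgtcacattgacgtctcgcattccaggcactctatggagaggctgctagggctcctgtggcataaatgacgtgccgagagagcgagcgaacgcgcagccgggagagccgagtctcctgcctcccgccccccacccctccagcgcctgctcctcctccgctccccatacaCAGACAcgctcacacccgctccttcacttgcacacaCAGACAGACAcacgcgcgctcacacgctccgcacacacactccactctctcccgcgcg
Ctla2a held 1 AGAACA, 2 Smad boxes and 1 AP-1 site, Sgk1 held 1 AGAACA, and Nr4a3 held 3 Smad boxes, a pair of which overlap. Over 27025 RefSeq promoters of this length, AGAACA occurred in 19.0%, CAGACA in 5684 promoters and TGANTCA in 7.93%. GTCTAGAC, the Smad palindrome, occurred in 0.211% and in none of these 3. Of the 125 genes moved by both agents, 92 had a promoter in the table, and 12 of these, 13.0%, held TGANTCA, against 4.58% of 7896 tested genes. AGAACA occurred in 14.1% of the 92 against 12.2%, CAGACA in 19.6% against 15.3%, and GTCTAGAC in 0 against 0.253%. Matches to short motifs describe the letters in these windows.

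Ctla2a, which encodes a small inhibitor of cysteine proteases, gave the clearest stepwise rise. Its levels were 275, 252 and 251 CPM in Ctrl, 503, 486 and 430 CPM in Dex, 839, 790 and 812 CPM in TGF, and 1309, 1182 and 1052 CPM in TGF+Dex. No group overlapped another. The interaction was −0.33 ± 0.11 (SE, 95% confidence interval −0.58 to −0.09), so the combined level of 1180.5 CPM (fitted) lay under the product of 1485 CPM and above the sum of the separate gains, 1027 CPM. Reads may be shared with its close paralog Ctla2b, so the split between them is uncertain.

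Sgk1 encodes a kinase known as a direct glucocorticoid target. It lay at 8.40, 6.00 and 5.11 CPM in Ctrl, 18.8, 18.3 and 13.3 CPM in Dex, 18.5, 10.4 and 9.68 CPM in TGF, and 26.5, 35.0 and 27.8 CPM in TGF+Dex. The TGF+Dex libraries were above all others, while Dex and TGF overlapped. The interaction was −0.17 ± 0.37, and the interval of −0.97 to 0.63 reached almost to the 2-fold bound; 7 of 20 alternative analyses lost the additive call.

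Cndp2, which encodes a dipeptidase, lay at 91.0, 105 and 96.2 CPM in Ctrl, 150, 158 and 135 CPM in Dex, 160, 167 and 161 CPM in TGF, and 216, 216 and 236 CPM in TGF+Dex. The fitted combined level was 223 CPM against a product of 246 CPM and a sum of 213 CPM. Gng2, a G protein gamma subunit, had 36.4 to 43.1 CPM in Ctrl and 99.0 to 104 CPM in TGF+Dex with an interaction of −0.31 ± 0.18. B4galt1, a galactosyltransferase, had 33.0 to 39.2 CPM in Ctrl and 95.8 to 101 CPM in TGF+Dex with −0.29 ± 0.12, and its interval of −0.56 to −0.03 left 0 just outside. Prps1, which makes the ribose donor for nucleotide synthesis, had 36.8 to 43.4 CPM in Ctrl and 83.9 to 90.1 CPM in TGF+Dex with 0.04 ± 0.14. These genes rose with each agent, and their combined levels were above those under either one.

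Over the 36 genes raised by both agents the median interaction was −0.17, and 28 of 36 estimates were negative. The combined level had a median of 0.889 of the product and 1.01 of the sum of the separate gains in CPM. By these medians the multiplicative and the summed expectation lay close together, but for Ctla2a they were 1485 and 1027 CPM. No test separated the expectations over the 36 genes.

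Both agents lowered 41 genes, of which 33 were additive within 2-fold, and TGF+Dex was below Ctrl in all 41, a direction again fixed by the choice. Gzmb, which encodes the cytotoxic protease granzyme B, lay at 669, 707 and 590 CPM in Ctrl, 259, 390 and 292 CPM in Dex, 159, 309 and 180 CPM in TGF, and 68.7, 124 and 108 CPM in TGF+Dex. The Dex and TGF libraries overlapped, and the TGF+Dex libraries were below all others. The fitted combined level of 100.5 CPM stood beside a product of 104 CPM, with an interaction of −0.05 ± 0.37 (interval −0.87 to 0.76). The summed expectation was −124 CPM, a value no level can take. The additive call of Gzmb was lost in 7 of 20 alternatives. The NK and CD8 T cell marker sum was lowest in TGF, at 10.6 to 12.1 CPM, and its part in the change of Gzmb was not tested.

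Ccr8, a chemokine receptor of Th2 and regulatory T cells, followed the same course with less spread. It lay at 166, 114 and 150 CPM in Ctrl, 98.1, 85.4 and 81.3 CPM in Dex, 79.3, 88.2 and 76.9 CPM in TGF, and 49.0, 49.0 and 57.3 CPM in TGF+Dex. The fitted combined level of 52.1 CPM met a product of 50.2 CPM, with an interaction of 0.05 ± 0.19. Gsn, the actin-severing protein gelsolin, lay at 215 to 253 CPM in Ctrl and 80.9 to 93.0 CPM in TGF+Dex with 0.15 ± 0.13. Tnfsf8, the ligand of CD30, lay at 68.4 to 78.9 CPM and 28.6 to 33.1 CPM with −0.20 ± 0.14. Rad50, a DNA repair protein, lay at 32.2 to 36.8 CPM and 12.2 to 15.6 CPM with 0.08 ± 0.18. H2-DMb2, a chaperone of MHC class II loading, lay at 61.9 to 68.2 CPM and 26.9 to 34.3 CPM with −0.01 ± 0.17. In all of these the combined group did not overlap Ctrl.

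Over the 41 genes lowered by both, the median interaction was 0.11, 31 of 41 estimates were positive, and the combined level had a median of 1.08 of the product. For 8 of the 41 the summed expectation was at or below 0 CPM. Among the others, the combined level had a median of 1.28 of the sum.

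**Figure D2:**
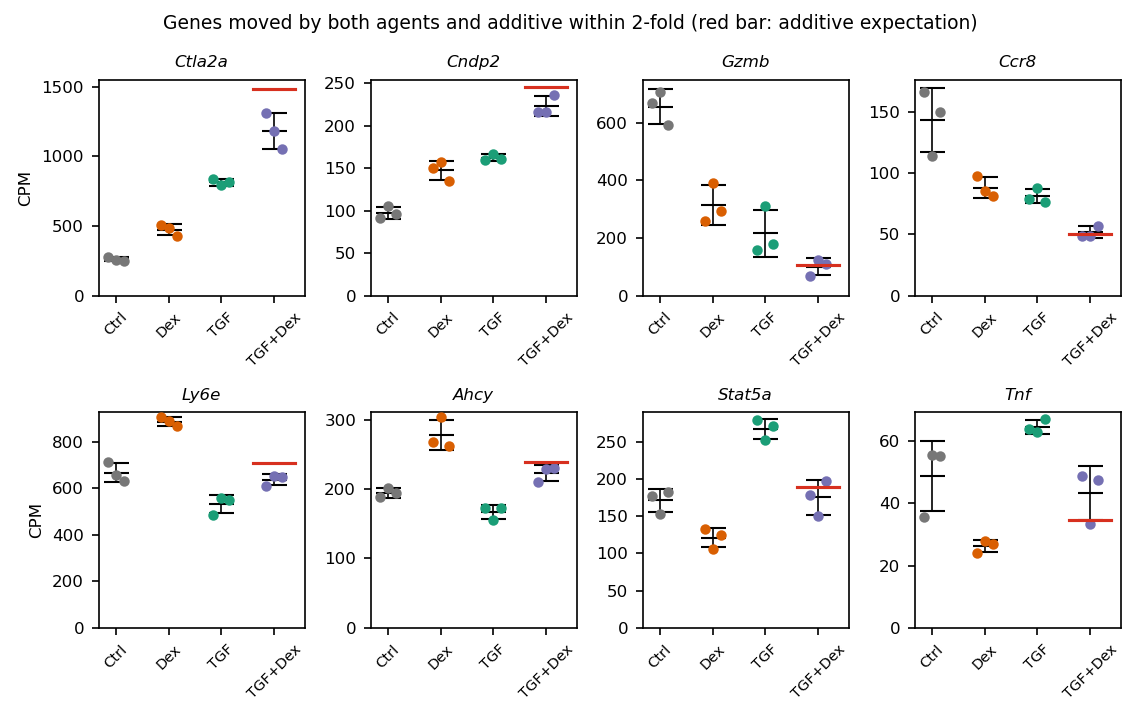
CPM of 8 genes moved by both agents in each of 12 libraries (points), with the mean and SD of each group (black) and the additive expectation Dex × TGF / Ctrl (red bar, over the TGF+Dex group). Ctla2a reached 1052 to 1309 CPM against a product of 1485 CPM, while Ccr8 at 49.0 to 57.3 CPM met its product of 50.2 CPM.

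For 48 genes the average effects had opposite signs, so they partly cancelled in their sum, the change from Ctrl to TGF+Dex. Where Dex raised and TGF-β1 lowered genes, this change ran from −0.125 to 0.845 on the log2 scale. In the reverse pattern it ran from −0.321 to 2.28. Dex raised and TGF-β1 lowered 14 genes, 10 of them additive within 2-fold. Dex lowered and TGF-β1 raised 34 genes, 29 of them additive within 2-fold. The median interaction was −0.04 in the first group and 0.11 in the second.

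Ly6e, a GPI-anchored surface protein, lay at 711, 657 and 631 CPM in Ctrl, 904, 889 and 866 CPM in Dex, 486, 559 and 548 CPM in TGF, and 609, 652 and 647 CPM in TGF+Dex. TGF+Dex overlapped Ctrl and neither single agent. The interaction was −0.15 ± 0.09. Ahcy, which breaks down S-adenosylhomocysteine, had 188 to 201 CPM in Ctrl, 262 to 303 CPM in Dex, 155 to 173 CPM in TGF and 210 to 230 CPM in TGF+Dex, and an interaction of −0.09 ± 0.10. In Ahcy the TGF+Dex libraries lay between Dex and Ctrl without overlap. Paxbp1 had 0.01 ± 0.16, Limd2 0.11 ± 0.15, Atp2b1, a plasma membrane calcium pump, 0.32 ± 0.17, and Cd48, an adhesion receptor of lymphocytes, 0.08 ± 0.13.

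Among genes lowered by Dex and raised by TGF-β1 were several cytokine and signalling genes. Stat5a, a transducer of interleukin 2 signals, lay at 177, 153 and 183 CPM in Ctrl, 132, 106 and 125 CPM in Dex, 279, 253 and 271 CPM in TGF, and 179, 151 and 197 CPM in TGF+Dex. The combined group overlapped Ctrl, and the interaction was −0.10 ± 0.15. Tnf, the proinflammatory cytokine, lay at 35.7, 55.6 and 55.3 CPM in Ctrl, 24.1, 27.9 and 27.0 CPM in Dex, 63.8, 63.0 and 67.2 CPM in TGF, and 49.0, 33.2 and 47.6 CPM in TGF+Dex, with an interaction of 0.33 ± 0.25. Irf8, a transcription factor of the interferon-regulatory family, had 165 to 210 CPM in Ctrl and 196 to 235 CPM in TGF+Dex with 0.28 ± 0.17. Gadd45b, a stress-response gene, had 28.1 to 48.6 CPM in Ctrl and 33.3 to 43.8 CPM in TGF+Dex with 0.31 ± 0.28, and lost the additive call in 4 of 20 alternatives. Ints4, a subunit of the Integrator complex, had 19.7 to 26.7 CPM in Ctrl and 30.3 to 32.6 CPM in TGF+Dex with −0.15 ± 0.20.

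Cyp11a1 encodes the enzyme that starts steroid synthesis from cholesterol. It lay at 54.2, 54.0 and 46.0 CPM in Ctrl, 19.7, 25.4 and 21.1 CPM in Dex, 65.0, 62.7 and 57.2 CPM in TGF, and 38.4, 43.7 and 41.3 CPM in TGF+Dex. No group overlapped another. Dex lowered it by 1.21 alone and by 0.58 beside TGF-β1 on the log2 scale, and the fitted combined level of 41.2 CPM was above the product of 26.7 CPM. The interaction of 0.63 had an interval of 0.27 to 0.98, inside the 2-fold bound but away from 0, with an unadjusted p of 0.00217, an adjusted p of 0.74 in edgeR and an adjusted p of 0.0347 in edgeR's equivalence test. The additive call of Cyp11a1 was lost in 9 of 20 alternatives.

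**Figure D3:**
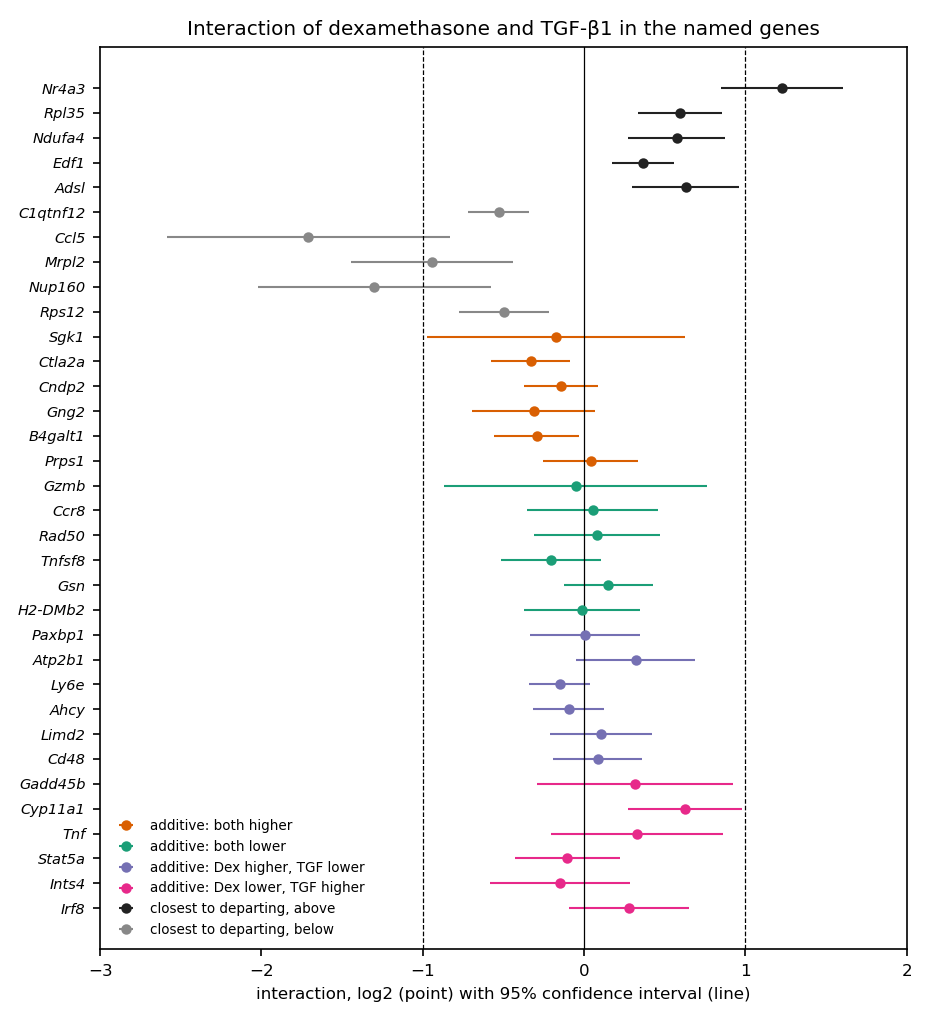
Interaction (points, log2) with its 95% confidence interval (lines) for the 34 named genes, coloured by the direction of both average effects or by the side closest to departing. Dashed lines mark 2-fold; the interval of Cyp11a1 runs from 0.27 to 0.98 and that of Nr4a3 from 0.85 to 1.60.

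With no gene past the threshold, the genes closest to departing were taken as the 5 of smallest p on each side among genes whose mean log2 CPM reached 4. These values chose the genes and are given as a description. Nr4a3, Rpl35, Ndufa4, Edf1 and Adsl lay above the product, and C1qtnf12, Ccl5, Mrpl2, Nup160 and Rps12 lay below it. Of the 10, Rpl35, Ndufa4, Edf1, Adsl, C1qtnf12 and Rps12 also passed the test for additivity within 2-fold. A precisely measured gene can differ from the product by less than 2-fold and still pass. The Dex effect on C1qtnf12 was 0.11 alone and −0.42 beside TGF-β1 on the log2 scale, a change of sign within the bound.

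Nr4a3 encodes an orphan nuclear receptor that T cells induce soon after antigen receptor signals. It lay at 38.1, 29.7 and 32.1 CPM in Ctrl, 13.6, 12.3 and 11.4 CPM in Dex, 46.8, 51.5 and 51.4 CPM in TGF, and 40.5, 47.6 and 43.8 CPM in TGF+Dex. Dex libraries were below all others, and TGF+Dex overlapped TGF. Dex changed it by −1.41 alone and by −0.19 beside TGF-β1 on the log2 scale. The interaction was 1.23 ± 0.17 (interval 0.85 to 1.60; edgeR adjusted p = 0.0978), and the fitted 44.0 CPM exceeded the product of 18.8 CPM. Over 21 alternatives its adjusted p ran from 0.0142 to 0.319, and it passed in DESeq2 (adjusted p = 0.0209) and in edgeR without a low-count filter (adjusted p = 0.0142). Of its relatives, Nr4a1 was additive within 2-fold at 0.14 ± 0.16, and Nr4a2 was undecided at 0.41 ± 0.48, with an interval of −0.62 to 1.44; no difference between these genes was tested.

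Ccl5, the chemokine RANTES, lay at 36.4, 38.7 and 35.5 CPM in Ctrl, 29.0, 60.2 and 69.9 CPM in Dex, 33.6, 53.8 and 43.3 CPM in TGF, and 20.4, 13.6 and 22.7 CPM in TGF+Dex. TGF+Dex was the lowest group and did not overlap the others, while Dex spread widely. The interaction was −1.71 ± 0.40 (interval −2.59 to −0.83), with an adjusted p of 0.74 in edgeR and 0.0322 in DESeq2. C1qtnf12, a secreted C1q and TNF related protein, lay at 186, 187 and 179 CPM in Ctrl, 203, 210 and 184 CPM in Dex, 181, 188 and 185 CPM in TGF, and 140, 133 and 141 CPM in TGF+Dex. Only the combination stood below Ctrl, with an interaction of −0.53 ± 0.09 and an adjusted p of 0.148 in edgeR and 0.0209 in DESeq2. Neither agent alone separated it from Ctrl at this spread.

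Nup160, of the nuclear pore, had 13.1 to 15.4 CPM in TGF+Dex against 17.0 to 36.1 CPM in Dex and an interaction of −1.30 ± 0.33, which passed once Dex replicate 2 was left out (edgeR adjusted p = 0.0473). Mrpl2, of the mitochondrial ribosome, had −0.94 ± 0.23. On the other side, Ndufa4, of the mitochondrial respiratory chain, had 0.57 ± 0.14, Edf1, a transcriptional coactivator, 0.36 ± 0.09, and Adsl, of purine synthesis, 0.63 ± 0.15. Rpl35 at 0.60 ± 0.12 and Rps12 at −0.50 ± 0.13 encode ribosomal proteins, and such genes have many processed copies, so their counts are uncertain.

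**Figure D4:**
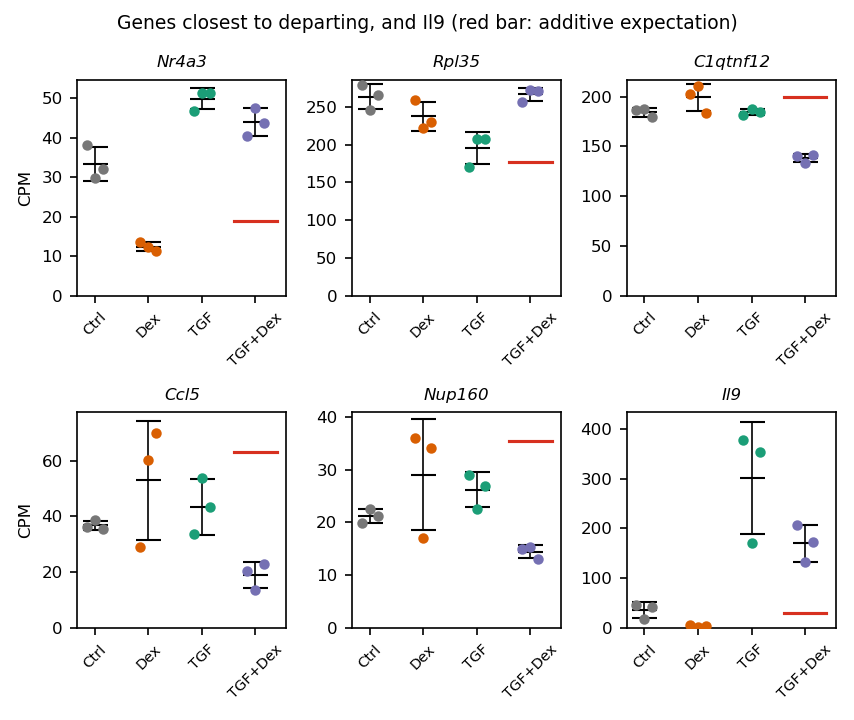
CPM in each of 12 libraries (points) of 5 of the genes closest to departing and of Il9, with group mean and SD (black) and the additive expectation Dex × TGF / Ctrl (red bar). Nr4a3 at 40.5 to 47.6 CPM in TGF+Dex lay above its product of 18.8 CPM, and Ccl5 at 13.6 to 22.7 CPM lay below its product of 63.1 CPM.

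The cytokine genes Il9, Il5, Il13 and Il3 moved by both agents had large effects and were still undecided in the model without a replicate term. Il9, the signature cytokine of Th9 cells, lay at 46.5, 17.4 and 41.9 CPM in Ctrl, 4.94, 1.64 and 4.23 CPM in Dex, 377, 171 and 353 CPM in TGF, and 206, 132 and 172 CPM in TGF+Dex. Dex changed it by −3.30 alone and by −0.82 beside TGF-β1, and TGF-β1 changed it by 3.10 alone and by 5.58 beside Dex, on the log2 scale. The interaction was 2.48 ± 0.80 (interval 0.70 to 4.26), with an adjusted p of 0.746 in edgeR. In every group replicate 2 was the lowest. With a replicate term in the model the interaction of Il9 was 2.50 and passed (edgeR adjusted p = 0.0325), so its call depended on that term.

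Il5 and Il13 encode Th2 cytokines. Il5 lay at 35.3, 28.3 and 27.0 CPM in Ctrl, 1.85, 3.01 and 0.975 CPM in Dex, 2.27, 3.18 and 1.51 CPM in TGF, and 0.680, 0 and 0.632 CPM in TGF+Dex. The product for Il5, 0.16 CPM, was under the floor of every library, so the combination could not be placed at this depth. Il13 lay at 43.0, 36.8 and 41.1 CPM in Ctrl, 6.79, 2.74 and 5.20 CPM in Dex, 3.78, 2.31 and 7.26 CPM in TGF, and 0.340, 0.350 and 1.05 CPM in TGF+Dex, with a product of 0.545 CPM, also under every floor. Il3, a growth factor of myeloid cells, lay at 96.2, 49.3 and 66.5 CPM in Ctrl, 13.6, 13.4 and 13.7 CPM in Dex, 16.6, 11.9 and 10.9 CPM in TGF, and 6.12, 0 and 2.32 CPM in TGF+Dex, with an interaction of 0.16 ± 0.70. For Il5, Il13 and Il3, Ctrl was above every other group without overlap. The TGF+Dex values of Il5 were at or under the floor, so their order against Dex and TGF could not be resolved.

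On the linear CPM scale, where additive means that gains add, the test called 0 of 10332 genes (0.0%), and 554 had an unadjusted p under 0.05. The smallest adjusted p was 0.0564 for Il5 and for Lta. For Il5 the sum was negative, a value no level can take, so its departure on this scale was bound to be positive and nothing is read from it. Lta, the cytokine lymphotoxin alpha, lay at 220, 234 and 220 CPM in Ctrl, 176, 175 and 170 CPM in Dex, 676, 635 and 633 CPM in TGF, and 444, 413 and 463 CPM in TGF+Dex. The 4 groups did not overlap. Its fitted combined level of 440.5 CPM was 156 CPM under the sum, but its log2 interaction was −0.18 ± 0.08, additive within 2-fold. The combined level of Lta lay between those under Dex and under TGF, nearer to the product of 500.1 CPM than to the sum of 597 CPM.

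Responders to each agent were also followed, and genes moved by both agents were kept in these sets. For 159 genes raised by Dex on average, the median Dex effect was 0.60 without TGF-β1 and 0.48 with it on the log2 scale, and for 179 lowered genes it was −0.50 and −0.40. For 381 genes raised by TGF-β1 the median effect was 0.57 without Dex and 0.50 with it, and for 329 lowered genes −0.49 and −0.51. Without TGF-β1, Dex moved 189 genes (1.83%), and with it 55 (0.532%), of which 44 passed in both. TGF-β1 moved 340 genes (3.29%) without Dex and 271 (2.62%) with it, of which 170 passed in both. Of the 145 genes called for Dex only without TGF-β1, 103 were additive within 2-fold and 42 were undecided. The interaction test called 0 of them, as it did of all tested genes. An unadjusted interaction p under 0.05 in edgeR was found in 54 of the 145, against 5.34% of all tested genes. Choosing genes called in a single setting favours such p-values, so nothing is read from this share. A call in a single setting is therefore not taken as a departure.

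The study's gene programmes were followed through 24 lists with 445 genes, of which 337 were tested. Of these, 248 were additive within 2-fold and 0 departed. An unadjusted interaction p under 0.05 in edgeR was found in 28 of the 337, against 5.34% of all tested genes. In the list of glucocorticoid-induced genes 14 of 20 were additive. Dex raised 6 of the 20 and lowered 1, where it raised 1.54% and lowered 1.73% of all tested genes. Icos, a co-stimulatory receptor gene of another list, lay at 52.5, 51.2 and 59.6 CPM in Ctrl, 130, 116 and 124 CPM in Dex, 55.5, 50.3 and 57.5 CPM in TGF, and 104, 109 and 111 CPM in TGF+Dex. Icos was moved by Dex, with an interaction of −0.19 ± 0.12, additive within 2-fold. Plaur, the urokinase receptor, changed by 3.36 with Dex alone and by 2.84 beside TGF-β1, from 1.91 to 3.65 CPM in Ctrl, and its interaction of −0.52 ± 0.33 was undecided. Txnip, a regulator of glucose uptake, changed by 1.06 alone and by 0.38 beside TGF-β1, with an interaction of −0.68 ± 0.20 that was undecided (edgeR unadjusted p = 0.00457, adjusted p = 0.742).

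Among TGF-β and Smad targets 15 of 26 were additive, with 10 raised by TGF-β1 on average and 1 lowered. TGF-β1 raised 3.69% and lowered 3.18% of all tested genes. Skil, a Smad co-repressor, had −0.08 ± 0.21 and Tgif1, another repressor, −0.23 ± 0.19. Nt5e, the ecto-enzyme CD73, rose by 3.27 with TGF-β1 alone and by 2.63 beside Dex, and was undecided at −0.64 ± 0.43. Among NF-kB and AP-1 targets 22 of 34 were additive, with 9 lowered by Dex and 2 raised. Dex lowered 1.73% and raised 1.54% of all tested genes. Nfkb2 had 0.12 ± 0.10 and Jun −0.03 ± 0.21. Il2, the T cell growth factor, changed by −2.23 with Dex alone and by −0.96 beside TGF-β1, with an interaction of 1.27 ± 0.53 that was undecided (unadjusted p = 0.0336, adjusted p = 0.869 in edgeR).

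Among Th17 identity genes 6 of 12 were additive, and TGF-β1 raised 8 of the 12, where it raised 3.69% of all tested genes. Ccr6, the chemokine receptor of Th17 cells, lay at 9.45, 10.6 and 7.06 CPM in Ctrl, 18.5, 15.1 and 27.3 CPM in Dex, 61.6, 46.0 and 62.3 CPM in TGF, and 89.4, 81.5 and 98.3 CPM in TGF+Dex. The 4 groups did not overlap, and the interaction of −0.49 ± 0.30 (interval −1.15 to 0.17) was undecided. Of the homeostatic Th17 genes 2 of 12 were additive, the lowest share among lists with at least 10 tested members; Ikzf3, the transcription factor Aiolos, was undecided at −1.52 ± 0.41 and lay at 3.50 to 13.0 CPM. In the Th2 and Th9 list 6 of 12 were additive, with 5 lowered by Dex and 5 lowered by TGF-β1. The shares lowered among all tested genes were 1.73% for Dex and 3.18% for TGF-β1.

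Lists of abundant housekeeping programmes were placed almost whole. All 23 tested glycolysis and hypoxia genes, 24 of 25 cholesterol synthesis and uptake genes and 28 of 29 proliferation genes were additive within 2-fold. Among co-inhibitory and co-stimulatory receptors 20 of 22 were additive, including Tigit, an inhibitory receptor. It lay at 104, 117 and 112 CPM in Ctrl, 81.8, 104 and 92.3 CPM in Dex, 38.9, 40.8 and 35.4 CPM in TGF and 29.9, 40.6 and 30.7 CPM in TGF+Dex, with an interaction of 0.07 ± 0.18. Among cytokine receptors and Jak-Stat feedback genes 23 of 26 were additive. Socs2, a feedback inhibitor, lay at 109 to 119 CPM in Ctrl, 139 to 156 CPM in Dex, 131 to 133 CPM in TGF and 166 to 184 CPM in TGF+Dex, with an interaction of 0.03 ± 0.10. These shares stand beside 64.9% of all tested genes, and no list is called particular from them.

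**Figure D5:**
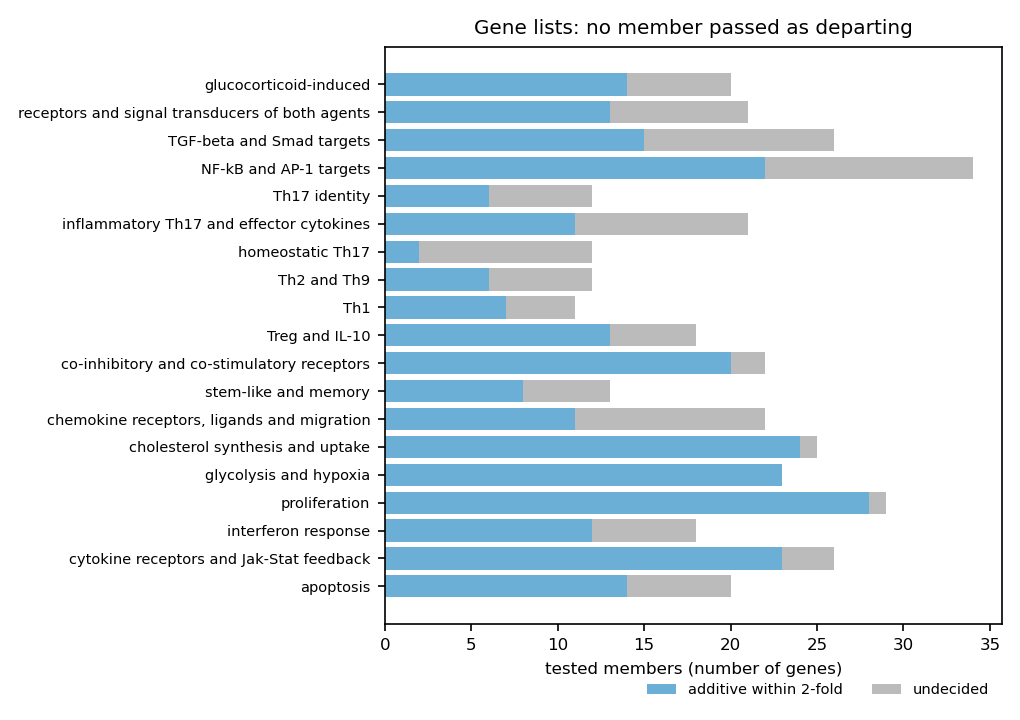
Number of tested members (horizontal axis) of 19 gene lists that were additive within 2-fold (blue) or undecided (grey). No member departed; all 23 glycolysis and hypoxia genes were additive and 2 of 12 homeostatic Th17 genes were.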

How the data were processed

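Polyadenylated RNA of sorted Th17 cells was sequenced in paired ends after a modified SMART-Seq2 protocol, per the labels' protocols, which keeps no strand information. The deposited values are raw gene counts in 12 columns, each matched to a library by its label. RSEM 1.3.3 and the build mm10 are named in the submitters' processing notes. Gene positions came from GENCODE M21, which held 30464 of 31053 symbols, and promoters from RefSeq (GRCm38.p6), which held 29 of the 34 named genes.

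After filterByExpr and TMM scaling, 1 robust quasi-likelihood model over the 4 groups was fitted in edgeR 4.0.16 (R 4.3.3). The interaction, both average effects and 5 pairwise effects were contrasts of that model, with Benjamini-Hochberg adjustment over all tested genes and a threshold of 0.05. The average effects were used to choose responders. CPM are scaled by library size and TMM factor, intervals are 95%, and floors of 3 counts and intervals cover counting error or library spread only. Additivity within 2-fold was tested by 2 one-sided tests. The linear-scale test used group means in CPM with a delta-method error.

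Named genes had a mean log2 CPM of 4 or more and were up to 6 additive genes per direction pattern with the largest smaller average effect, and 5 genes per side with the smallest interaction p, since none passed. The naming passed over predicted genes, RIKEN clones, receptor segments and pseudogenes. Further genes are members of the lists or, like Il9, responders to both agents, and were picked for display with their values known. Results for some listed genes are not reported here. The members and lists were chosen with earlier results of these data known. Replicate pairs spread beyond counting error, with a chi-square per degree of freedom of 2.79 to 52.4. Alternatives were other scalings and count filters, a replicate term, DESeq2 1.42.0, limma 3.58.1 voom, no repeat-like genes, and each library left out. The tests were checked on simulated counts.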

Additional observations from a re-analysis of the deposited data

How the results depend on the processing

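Whether replicate numbers pair the libraries was not settled. Over 18 same-number pairs the correlation of deviations ran from −0.0188 to 0.0732, none over 0.1. Over 36 other-number pairs it ran from −0.0715 to 0.0326. Of the 12 libraries, 9 correlated best with their own number. With the replicate block the interaction called 2 genes, Il9 (adjusted p = 0.0325) and Gm10337, and 1 list member.

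Interaction calls were 0 in edgeR, 4 without a low-count filter, 6 in DESeq2, and 0 to 1 with a library left out, where Dex replicate 2 and TGF+Dex replicate 2 each gave 1; list members called were 1 without the filter and 2 in DESeq2. The linear-scale count was 2 with RLE scaling, 1 with library size alone, 3 without a filter, 1 at a mean count of at least 50, and 0 to 1 with a library left out. Under library size alone the counts fell to 169 genes for Dex, 433 for TGF-β1, 49 for both agents and 31 for both and additive, and the pairwise counts to 55 (Dex alone), 177 (TGF-β1 alone), 15 (Dex beside TGF-β1), 132 (TGF-β1 beside Dex) and 385 (both against Ctrl). DESeq2 gave 94 for Dex beside TGF-β1. Additive genes numbered 1844 under the 1.5-fold bound. The cause was not tested.

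With 1 library left out, the Dex average gave 216 to 287 genes, both agents 76 to 100 and both with additivity 61 to 78, lowest without Ctrl replicate 3 or Dex replicate 1. The pairwise counts ran from 78 to 180 (Dex alone), 219 to 326 (TGF-β1 alone), 24 to 57 (Dex beside TGF-β1), 152 to 266 (TGF-β1 beside Dex) and 425 to 641 (both against Ctrl). No named gene reversed, 445 of the additivity values of named genes kept their call and 35 lost it, and 204 of the interaction values kept their side while 6 passed. Depth limits the genes of low level, whose intervals are wide.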

Other observations

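Some list members not described above gave values that a reader may wish to look at again. The interferon-induced gene Gbp4 had an interaction of −1.04 ± 0.42 and the pro-apoptotic gene Bak1 −1.07 ± 0.34, and neither was additive within 2-fold or past the interaction threshold. TGF-β1 lowered 6 of 18 interferon response genes on average, where it lowered 3.18% of all tested genes. Dex lowered and raised 0 of the 18, where it lowered 1.73% and raised 1.54% of all tested genes. In the same lists Bcl2l1, an anti-apoptotic gene, lay at 120 to 137 CPM in Ctrl and 110 to 132 CPM in TGF+Dex, lowered by Dex and raised by TGF-β1, with an interaction of 0.13 ± 0.12. Slc2a3, a glucose transporter, had 0.23 ± 0.07 with an interval of 0.07 to 0.39, inside the 2-fold bound and away from 0.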
